A study of Mus musculus with 10 samples.

Results

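The expression of 10 glycolytic enzyme genes, namely Hk1, Gpi1, Pfkl, Aldoa, Tpi1, Gapdh, Pgk1, Eno1, Pkm and Ldha, was examined in lung RNA-seq data of 10 mice. The genes were chosen by symbol, 1 enzyme gene for each of 10 reactions from glucose to lactate, and all of their rows in the expression table were taken, given as FPKM (fragments counted per kilobase of a transcript and relative to all mapped fragments of the library). These were 17 transcript rows of 10 genes, among 66548 rows and 24394 gene symbols in all, and 5 of the 10 genes had more than 1 row. All mice were female BALB/c animals bought at an age of 8 weeks. The Saline group (n = 3) was the control, the OVA group (n = 3) was sensitized with ovalbumin and alum by intraperitoneal injection and challenged with ovalbumin through the nose, which provokes asthma-like allergic airway inflammation, and the Herb group (n = 4, DSE in the study) went through the ovalbumin protocol and was given an ethanol extract of Descurainia sophia seeds by mouth. Each library came from 1 mouse.

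Glycolysis is the pathway in the cytosol that breaks glucose down to pyruvate and yields ATP and NADH. In its first, energy-consuming phase, hexokinase (Hk1) traps glucose as glucose phosphate, glucose phosphate isomerase (Gpi1) turns it into fructose phosphate, phosphofructokinase (Pfkl, the liver type) commits the sugar to the pathway, aldolase (Aldoa) splits it into a pair of triose phosphates, and triose phosphate isomerase (Tpi1) interconverts them. In the energy-yielding phase, glyceraldehyde phosphate dehydrogenase (Gapdh) makes NADH, phosphoglycerate kinase (Pgk1) and pyruvate kinase (Pkm) make ATP, and enolase (Eno1) acts between these kinases. Lactate dehydrogenase (Ldha) reduces pyruvate to lactate and returns NADH to its oxidized form. Every cell uses this pathway, several of its genes are targets of the hypoxia-inducible factor HIF-1, and Gapdh is widely used as a reference gene because its mRNA is abundant in nearly all tissues.

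The depth, estimated from the lowest FPKM values under the assumption that they stand for 1 fragment, was 14700000 to 29400000 fragments per library. RefSeq protein-coding rows held 18.5% to 21.3% of the summed FPKM of a library in Saline, 3.36% to 4.68% in OVA and 8.44% to 13.6% in Herb, and the ribosomal RNA precursor Rn45s stood at 1201 to 1386, 10014 to 13531 and 3230 to 7019 FPKM. Markers of lung cells were present in all libraries, and their summed levels differed between the groups. Alveolar type 2 cell markers (7 genes) summed to 3393 to 4449 FPKM in Saline, 475 to 828 in OVA and 1099 to 2007 in Herb, club cell markers (3 genes) to 13250 to 23458, 2685 to 5296 and 7934 to 12365, and macrophage markers (7 genes) to 1264 to 1450, 231 to 592 and 967 to 1376. Most of the macrophage sum in Saline was Lyz2 (1244 ± 78.2 FPKM, SD, n = 3, beside 174 ± 124 in OVA, n = 3, and 632 ± 263 in Herb, n = 4). Chil3, another macrophage gene, stood at 107 ± 49.2, 156 ± 93.9 and 470 ± 115, and of 5 macrophage markers tested 2 were called lower in OVA as deposited and 3 higher and 1 lower when scaled to protein-coding RNA. Erythroid markers (5 of 6 genes in the table, Hbb-bt absent) summed to 5733 to 6969, 31.0 to 561 and 1077 to 1584 FPKM. Eosinophil markers (8 genes) summed to 24.4 to 48.4, 4.76 to 10.3 and 10.1 to 14.6 FPKM. Of 3 tested, 3 were called lower in OVA than in Saline as deposited and 2 when scaled to protein-coding RNA. Neutrophil markers (5 of 6 genes in the table, Ly6g absent) summed to 40.3 to 474, 9.25 to 37.9 and 41.1 to 128 FPKM. Of 5 tested, 2 were called lower in OVA than in Saline as deposited and 0 were called when scaled to protein-coding RNA. In lavage fluid, by contrast with these sums as deposited, the study counted more eosinophils, neutrophils and macrophages in OVA than in Saline. The reason for this difference was not tested. The part of these differences in the values below was not tested, and in bulk tissue fewer cells of a type cannot be told apart from less RNA per cell.

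Gapdh and Eno1 were listed at or near 0 throughout the study, which is implausible for lung tissue. Gapdh (chr6:125161852-125166467 in GRCm38.p6, the assembly that mm10 represents) was listed at 0 in 9 of 10 libraries and at 0.0621 FPKM in Herb replicate 2, which corresponds to about 1.3 fragments at the estimated depth of that library. Of its 2 rows, NM_008084 carried this value and NM_001289726 was listed at 0 in all 10 libraries. Eno1 (chr4:150236708-150248879), with the single row NM_023119, was also listed at 0 in all 10 libraries. Pgk1 (chrX:106187100-106203699) was listed at 0 in Herb replicate 3 and at 2.54 to 13.9 FPKM in the other 9 libraries. Neighbours of these enzymes in the pathway had values in every library, since Tpi1, which supplies the substrate of Gapdh, ranged from 4.30 to 16.6 FPKM, and Pkm, which uses the product of Eno1, from 8.23 to 29.4. The zeros of Gapdh, Eno1 and Pgk1 are therefore given as listed, with no fold change for Gapdh and Eno1.

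The members differed in how much of their sequence is found elsewhere in the mouse transcriptome. Processed pseudogenes, copies of an mRNA inserted back into the genome, are known to be numerous for Gapdh, and a read that fits several places can be shared out or dropped by an aligner or an assembler. All 76-base windows of each member's transcript, 76 bases being the read length, were therefore searched in the transcripts of all other genes of GENCODE vM21. Of the windows of Gapdh, 80.2% (NM_008084) and 88.1% (NM_001289726) were found without a mismatch in other genes, 118 genes in all, and 168 of the 177 genes with a long similar stretch were annotated as pseudogenes. The window shared most widely lies in 1 coding exon of Gapdh at chr6:125162876-125162951 (minus strand) and was found in 48 other genes. It is shown because it was found in more other genes than any other window of NM_008084, and it carries no capitals since all of its bases were shared.

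Gapdh shared window: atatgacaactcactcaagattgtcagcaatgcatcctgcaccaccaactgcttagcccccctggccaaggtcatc

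Pgk1 and Eno1 followed with 67.5% and 65.2% of windows in 4 and 6 other genes. Both rows of Pkm had about 15% (14.9% and 15.1%), Gpi1 9.72%, the main Ldha row NM_010699 5.75%, Tpi1 2.35% and the Aldoa rows 1.29% to 1.37%, and no window of Hk1 or Pfkl was found in another gene. The 3 genes with the largest shares were thus the 3 genes with implausible zeros, but Pgk1 was unlike the other genes. It was listed at 0 in 1 of 10 libraries only and had a mean of 6.96 FPKM, with a larger share than Eno1. In that library an assembled model listed next to Pgk1, described below, stood at 10.5 FPKM. Genes of a list of reference genes did not all show the same pairing. Ppia, with 50.9% of windows in 21 other genes, was listed at 0 in all 10 libraries, whereas Eef1a1, with 39.1% in 13 other genes, had a mean of 625 FPKM. Phosphoglycerate mutase (Pgam1), the enzyme between Pgk1 and Eno1 in the pathway, had 40.6% and a mean of 5.11 FPKM, and the glucuronidase gene Gusb had no such window and was listed at 0 in 9 of 10 libraries. The part of shared sequence in the zeros was not tested.

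**Figure D1:**
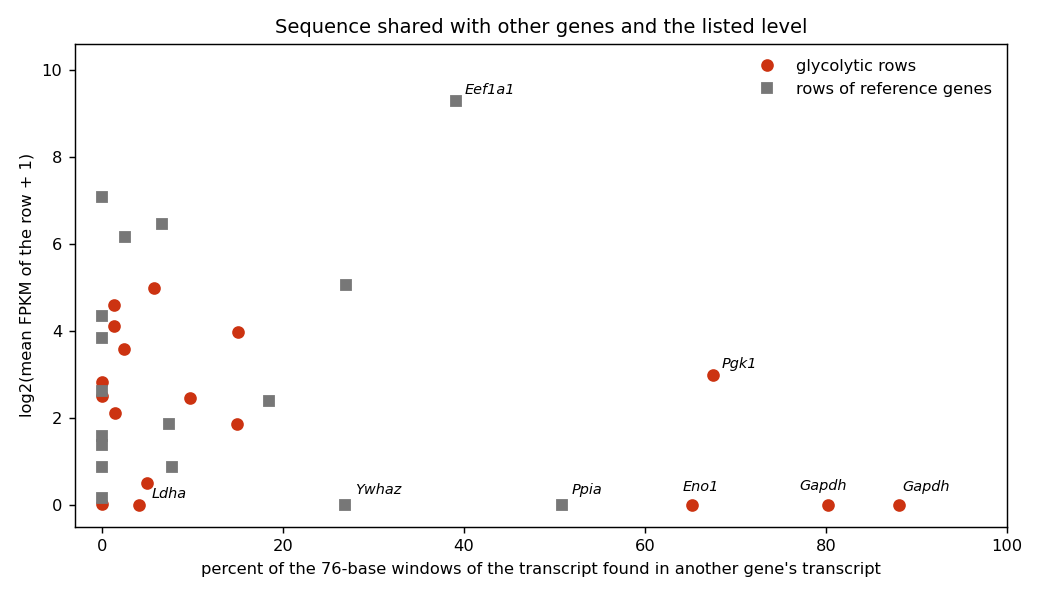
Percent of 76-base windows found in transcripts of other genes (horizontal axis) against the mean FPKM over 10 libraries on the log2(FPKM + 1) scale (vertical axis) for the rows of the 10 glycolytic genes and of reference genes. The Gapdh rows, at 80.2% and 88.1%, lie at the right and at or near 0 FPKM, and Eef1a1, at 39.1%, has a mean of 625 FPKM.

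The remaining 8 genes had a mean of at least 1 FPKM over all libraries. Aldoa and Ldha had the largest means over the 10 libraries, 42.9 and 31.3 FPKM, followed by Pkm at 17.5 and Tpi1 at 11.1. Pgk1 at 6.96, Hk1 at 6.16, Pfkl at 4.67 and Gpi1 at 4.50 were lower, and the ranges of these 4 genes over the libraries overlapped. FPKM is a level per transcript length, so these levels can be set side by side, but the composition of each library enters all of them.

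In the energy-consuming phase all 5 genes were highest in the Saline libraries on average. Aldoa stood at 65.8, 68.0 and 66.1 FPKM in Saline replicates 1 to 3, at 14.4, 25.8 and 24.8 in OVA, and at 37.7, 51.7, 32.0 and 42.7 in Herb. The 3 groups did not overlap, and the Herb libraries lay between the other two groups. Tpi1 showed the same order, with 15.9, 16.6 and 16.6 FPKM in Saline, 4.30, 6.41 and 7.54 in OVA and 9.86, 12.4, 9.18 and 11.8 in Herb. Pfkl stood at 6.64, 6.28 and 6.47 FPKM in Saline, at 2.51, 3.41 and 3.48 in OVA and at 5.22, 4.49, 3.51 and 4.74 in Herb. For Pfkl the gap between Herb replicate 3 and the highest OVA library was small, and the Saline libraries spread by a coefficient of variation of 2.74%. Gpi1 stood at 5.12, 9.70 and 7.18 FPKM in Saline, at 1.50, 2.04 and 1.78 in OVA and at 4.23, 3.54, 2.36 and 7.53 in Herb. Its OVA libraries were the tightest, and the Herb libraries spread over much of the range between the other groups and overlapped with Saline. Hk1 varied least. It stood at 7.38, 5.69 and 7.52 FPKM in the Saline libraries, at 4.29, 4.78 and 5.57 in OVA and at 6.93, 6.51, 5.33 and 7.57 in Herb, so that Herb overlapped with both other groups.

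In the energy-yielding phase Pkm and Ldha were also lowest in OVA, and their Herb values overlapped with Saline. Pkm stood at 22.7, 18.8 and 29.4 FPKM in Saline, at 8.25, 8.23 and 9.92 in OVA and at 21.2, 18.8, 14.6 and 22.8 in Herb. Ldha stood at 41.3, 31.8 and 34.0 FPKM in Saline, at 16.3, 24.0 and 28.2 in OVA and at 34.9, 31.8, 34.3 and 37.0 in Herb. The Herb libraries of Ldha lay close together (34.5 ± 2.15 FPKM, SD, n = 4) while those of OVA ranged widely (22.8 ± 6.02, n = 3). Pgk1 stood at 13.9, 5.95 and 6.92 FPKM in Saline, at 2.54, 5.22 and 3.75 in OVA and at 6.41, 11.4, 0 and 13.5 in Herb, and it was the most uneven gene within groups, with a coefficient of variation of 48.6% in Saline.

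**Figure D2:**
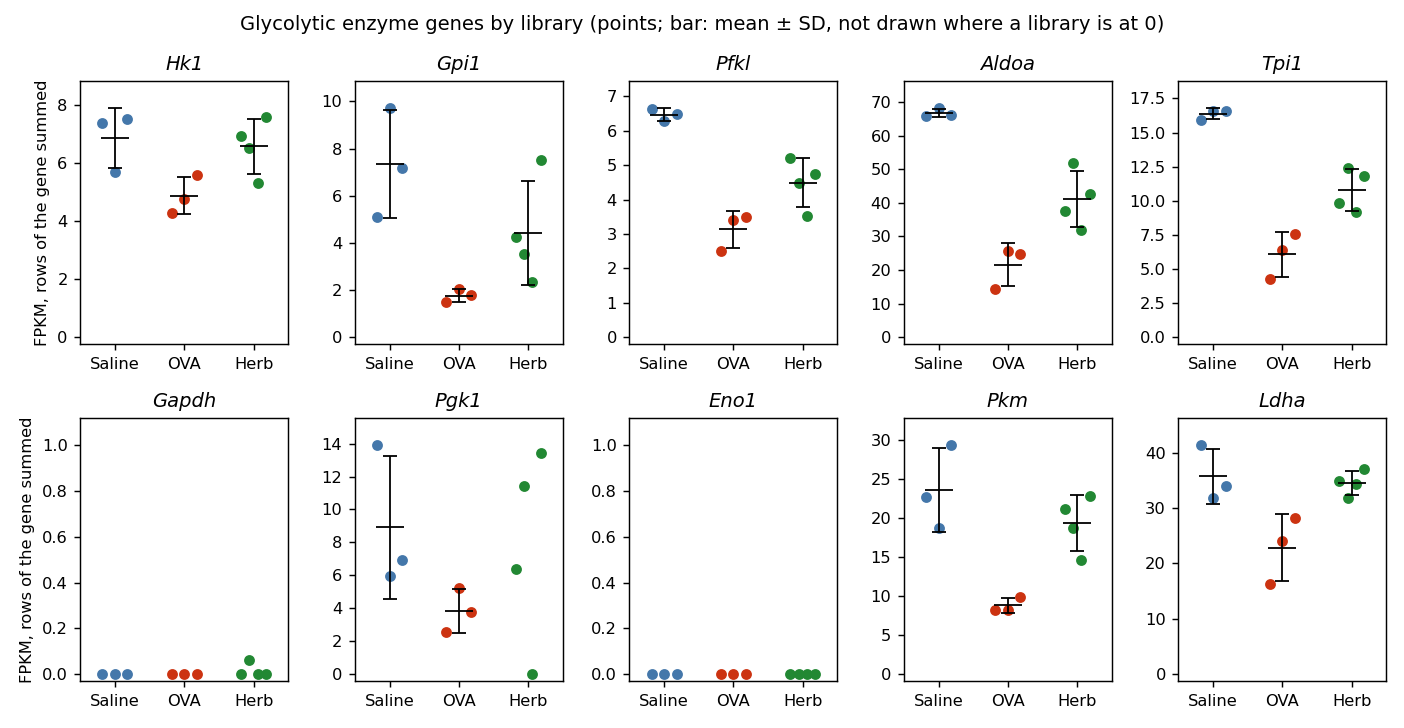
FPKM of each glycolytic gene (sum of its rows) in every library, 1 panel per gene, with Saline, OVA and Herb side by side and bars for the mean ± SD, left out where a library is at 0. Gapdh and Eno1 are at or near 0 in all libraries, and Aldoa falls into 3 groups that do not overlap, at 65.8 to 68.0, 14.4 to 25.8 and 32.0 to 51.7 FPKM.

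Comparing OVA with Saline addresses the asthma model. On the deposited scale 7 of the 8 genes tested were lower in OVA, although under the 3 other scalings described below Hk1 and Ldha were above 0 in all 3, Pfkl and Pkm in 2, and Aldoa and Tpi1 in 1. Aldoa fell from 66.6 ± 1.22 to 21.7 ± 6.32 FPKM (SD, n = 3 and 3), a log2 fold change of -1.62 ± 0.25 (SE) on the log2(FPKM + 1) scale with a limma adjusted p of 0.000472 by the Benjamini-Hochberg method. Tpi1 fell from 16.4 ± 0.396 to 6.08 ± 1.65 FPKM (limma adjusted p = 0.000358), Pkm from 23.6 ± 5.35 to 8.80 ± 0.970 (adjusted p = 0.000587), and Gpi1 from 7.33 ± 2.29 to 1.77 ± 0.268 (adjusted p = 0.00243). The changes of Pfkl (-0.86 ± 0.15 on the log2 scale, limma adjusted p = 0.000877), Ldha (-0.65 ± 0.20, adjusted p = 0.0210) and Hk1 (-0.42 ± 0.16, adjusted p = 0.0444) were smaller. Pgk1 (-0.99 ± 0.88, adjusted p = 0.353) did not pass the test, although its OVA libraries lay below its Saline libraries. The 3 groups share 1 estimate of the spread, and this includes the listed 0 of Pgk1 in Herb replicate 3. Without that library Pgk1 was called (limma adjusted p = 0.0452). The deposited values were lower in OVA for most genes of the lung, since 57.9% of 11205 gene sums were called lower, the median log2 fold change was -0.75 over all genes tested and -1.15 over the 8 glycolytic genes, and 63% of gene sums were lower without overlap, as were all 8 of these genes. Among gene sums with a mean of at least 5 FPKM, 3118 of 3955 were called lower, as were 5 of 6 glycolytic genes. The median there was -1.28 over all genes and -1.15 over the 6. The call of Ldha was lost without Saline replicate 1 (limma adjusted p = 0.0776), and that of Hk1 without any 1 of Saline replicates 1 and 3, OVA replicates 1 and 2 and Herb replicates 1 and 2 (highest adjusted p 0.135), whereas the other 5 calls were kept in each of 10 fits that left out 1 library.

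Comparing Herb with OVA addresses the extract. On the deposited scale 6 of the 8 genes were higher in Herb, and none of the 6 calls remained under any of the 3 other scalings, where Pfkl and Ldha were below 0 in all 3 and Aldoa and Tpi1 in 1 each. Pkm rose from 8.80 to 19.4 ± 3.56 FPKM (n = 4), a log2 fold change of 1.04 ± 0.19 (limma adjusted p = 0.00716), and Aldoa from 21.7 to 41.0 ± 8.37 FPKM (0.91 ± 0.23, adjusted p = 0.0136). Tpi1 (0.76 ± 0.18, limma adjusted p = 0.0106), Gpi1 (0.89 ± 0.30, adjusted p = 0.0388), Ldha (0.60 ± 0.19, adjusted p = 0.0304) and Pfkl (0.41 ± 0.14, adjusted p = 0.0384) rose as well. Hk1 (0.36 ± 0.15, adjusted p = 0.0708) and Pgk1 (0.36 ± 0.82, adjusted p = 0.744) did not pass the limma test. Of all gene sums 44% were called higher and 49.6% were higher without overlap, and the median log2 fold change was 0.48 over all genes and 0.68 over the 8. Among gene sums with a mean of at least 5 FPKM, 2709 of 3955 were called higher, as were 4 of 6 glycolytic genes. The median there was 0.75 over all genes and 0.68 over the 6. The 6 genes called were also the 6 whose groups did not overlap. The OVA libraries enter this comparison and the one with Saline, so the 2 sets of values are not independent. Aldoa, Pkm and Tpi1 kept their calls in all 10 fits without 1 library, Ldha in 7, and Gpi1 and Pfkl in 3 each. Without Herb replicate 3, in which Pgk1 was listed at 0, Hk1 (lowest adjusted p 0.0343) and Pgk1 (log2 fold change 1.23, adjusted p = 0.0280) were called too.

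Herb and Saline were compared to see which differences were left under the extract. On the deposited scale Pfkl (-0.45 ± 0.14, limma adjusted p = 0.0407) and Tpi1 (-0.56 ± 0.18, adjusted p = 0.0447) were lower in Herb, and both were above 0 when scaled to protein-coding RNA (0.11 and 0.06). Aldoa had a larger difference (-0.71 ± 0.23) with a limma adjusted p of 0.0503. Gpi1 (-0.67 ± 0.30), Pgk1 (-0.63 ± 0.82), Pkm (-0.27 ± 0.19), Hk1 (-0.05 ± 0.15) and Ldha (-0.04 ± 0.19) were not called. Here 22.7% of gene sums were called lower, and 36.6% were lower without overlap, as were Aldoa, Pfkl and Tpi1. Pfkl kept its call in 4 and Tpi1 in 3 of the 10 fits without 1 library.

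Because the share of RefSeq protein-coding rows in the summed FPKM differed so much between the groups, the fits were repeated on 3 other scales. Dividing each library by the summed FPKM of these rows asks what share of that sum a gene made up. Here it is called scaling to protein-coding RNA. Rows without a RefSeq name, such as assembled models, are left out of this sum even where they come from coding genes. How this affects the groups was not tested. Dividing by the 75th percentile aligns an upper quartile, and quantile normalization gives all libraries the same distribution. The median log2 fold change of all genes in OVA vs. Saline was -0.75 as deposited and moved to 0.36, -0.19 and 0.00277 on these scales. Scaled to protein-coding RNA, Hk1 (0.91, limma adjusted p = 0.00170), Ldha (0.85, adjusted p = 0.00539) and Pfkl (0.40, adjusted p = 0.0146) were higher in OVA than in Saline, where 37.9% of all gene sums were called higher. Aldoa (-0.12), Gpi1 (-0.38), Pkm (0.13), Tpi1 (0.07) and Pgk1 (0.31) were not called on that scale. Scaled to the 75th percentile, Aldoa (-0.86), Gpi1 (-0.98), Tpi1 (-0.62) and Pkm (-0.58) remained lower in OVA, beside 29.7% of all gene sums, and Hk1 and Ldha stood at 0.26 and 0.11. After quantile normalization Ldha (1.09, limma adjusted p = 0.00490) and Hk1 (0.56, adjusted p = 0.0180) were called higher in OVA, beside 18.6% of all gene sums, and no gene of the 8 lower. On all 4 scales Aldoa and Gpi1 had lower values in OVA vs. Saline than Hk1 and Ldha.

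In Herb vs. OVA none of the 8 genes was called on any of the 3 other scales by limma, and 2 (protein-coding), 1 (75th percentile) and 0 (quantile) had an unadjusted p under 0.05, beside 28.4%, 25.9% and 26.1% of all gene sums. Few genes of the whole table were called there, namely 5.29% of gene sums in either direction when scaled to protein-coding RNA, 0.482% with the 75th percentile and 1.4% after quantile normalization. In Herb vs. Saline, Hk1 (0.52, limma adjusted p = 0.0340) and Ldha (0.61, adjusted p = 0.0362) were higher in Herb when scaled to protein-coding RNA, beside 18.6% of all gene sums, Ldha was higher after quantile normalization (0.77, adjusted p = 0.0457, beside 4.1%), and Aldoa was lower with the 75th percentile (-0.55, adjusted p = 0.0460, beside 15.6% called lower). Taken as a share of the summed protein-coding FPKM, the 10 genes together held 0.110% to 0.134% in Saline, 0.138% to 0.163% in OVA and 0.137% to 0.171% in Herb. Gapdh and Eno1, at or near 0, add next to nothing to these shares.

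**Figure D3:**
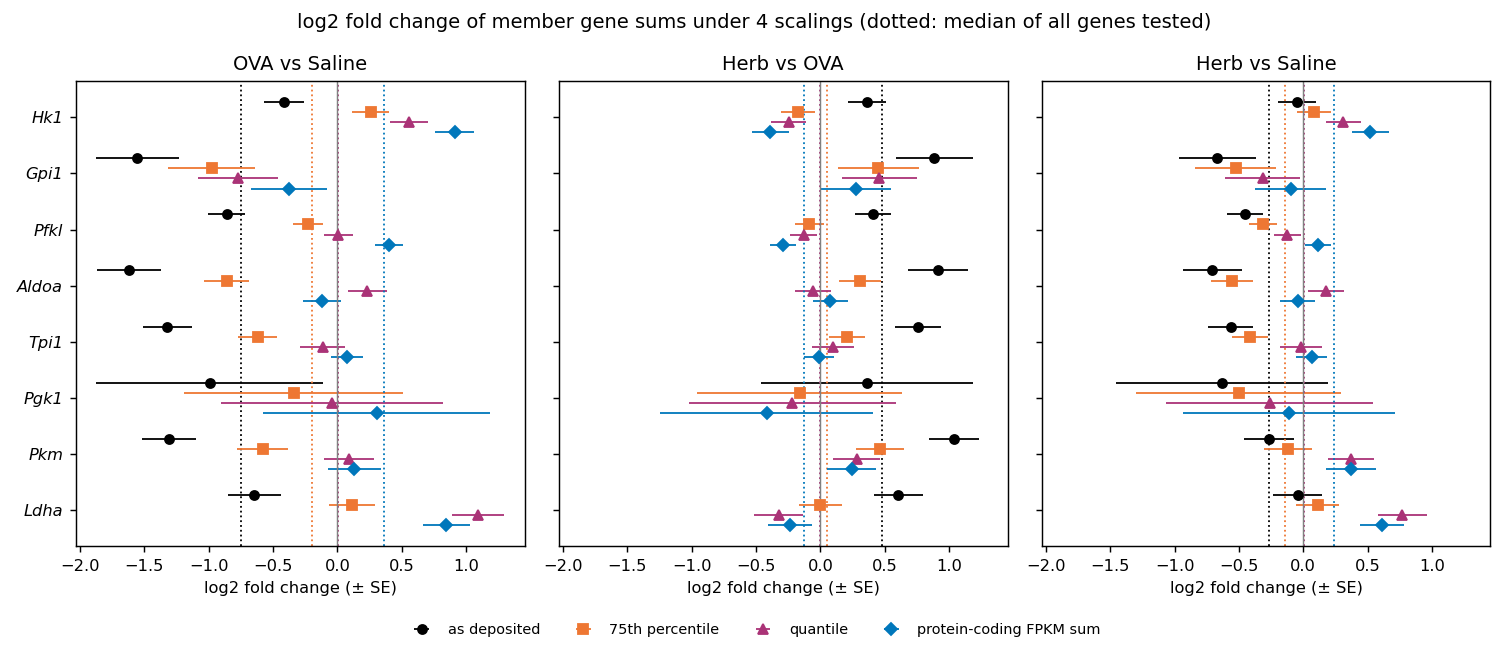
Log2 fold change ± SE of the 8 genes tested (rows) in the 3 comparisons (panels) under 4 scalings (colours and symbols), with dotted lines at the median of all genes on each scale. In OVA vs. Saline the values as deposited all lie below 0, while Hk1 and Ldha lie above 0 on the other 3 scales.

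A ratio between genes of the same library does not depend on the scaling of that library, so the make-up of the set itself was described, a measure chosen after the values were seen. Gapdh and Eno1, at or near 0, add next to nothing to the summed FPKM of the 10 genes. Pgk1 is missing from the sum in Herb replicate 3, the library with the highest Herb share of Ldha (33.8%). The shares are thus not the make-up of all glycolytic mRNA, and shares of 1 sum move against each other. Aldoa made up 36.8% to 41.8% of the summed FPKM of the 10 genes in Saline, 26.6% to 32.3% in OVA and 28.9% to 36.8% in Herb. Ldha made up 19.5% to 23.1%, 30.0% to 33.2% and 22.6% to 33.8%, so that Ldha had about the share of Aldoa in OVA and well under it in Saline. The ratio of Aldoa to Ldha was 1.59, 2.14 and 1.95 in the Saline libraries, 0.881, 1.08 and 0.878 in OVA and 1.08, 1.63, 0.934 and 1.15 in Herb. The ratio of Aldoa to Tpi1 overlapped between the groups. It was 4.14, 4.10 and 3.98 in Saline, 3.35, 4.03 and 3.28 in OVA and 3.82, 4.16, 3.49 and 3.62 in Herb. How often ratios or shares of other genes differ as much was not tested. Hk1 made up 3.49% to 4.32% in Saline and 5.98% to 7.93% in OVA, with Herb at 4.62% to 5.49% between them. Between OVA and Saline the shares of Hk1, Pfkl and Ldha (higher in OVA) and of Gpi1, Aldoa and Tpi1 (lower in OVA) did not overlap, each with p = 0.1 in a two-sided exact permutation test, which is the smallest p that 3 against 3 libraries allow. The share of Hk1 had p = 0.0286 between Herb and OVA, the smallest that the exact permutation test allows for 3 against 4. Over the 24 tests of shares the lowest adjusted p was 0.218, and since the OVA vs. Saline tests could not reach p under 0.05, their outcome does not tell whether these shares differ.

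**Figure D4:**
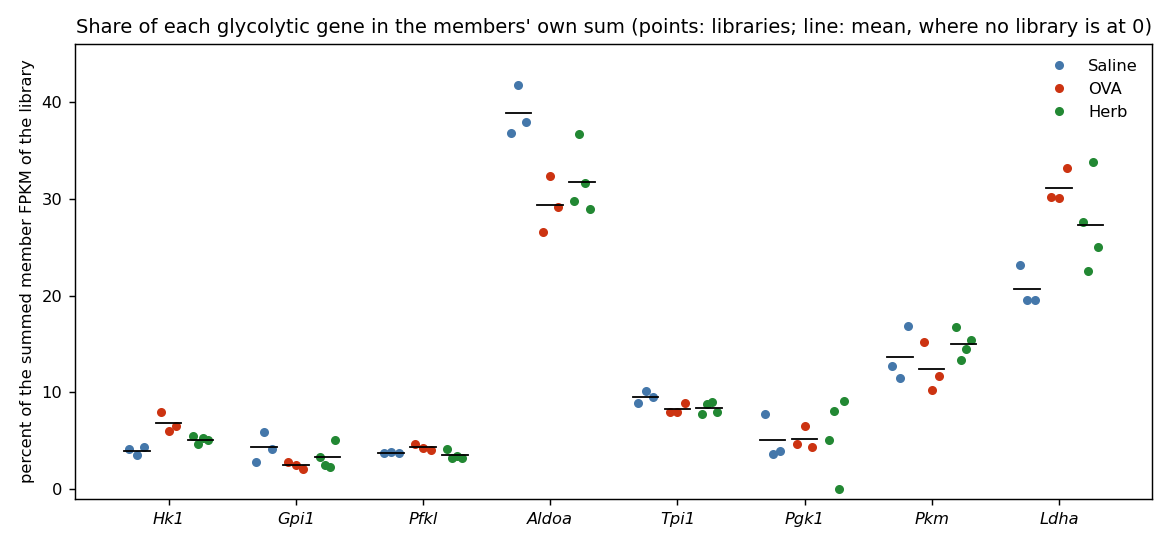
Percent of the summed FPKM of the 10 glycolytic genes that each gene made up in every library (points), with a line for the mean of each group where no library is at 0. Gapdh and Eno1, at or near 0, add next to nothing to the sum. The Aldoa share is 36.8% to 41.8% in Saline and 26.6% to 32.3% in OVA, and the Ldha share is 19.5% to 23.1% and 30.0% to 33.2%.

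The single transcript rows were less steady than the gene sums. Aldoa (chr7:126795234-126800994) has 3 rows that differ mainly in their first exons, with 7.55% to 11.0% of bases in no other row, and its level moved between them from library to library. Row NM_001177307 stood at 0.619, 50.3 and 58.4 FPKM in Saline, 0.298, 0.559 and 16.0 in OVA and 0.494, 11.1, 18.3 and 7.54 in Herb. Row NM_007438 stood at 58.4, 5.94 and 7.47, at 14.0, 22.2 and 5.28 and at 37.1, 40.4, 6.32 and 35.1. Where one of these rows was high the other was low, so that in Saline the coefficients of variation were 85.9% and 125% for these rows and 1.83% for their sum with NM_001177308. None of the Aldoa rows was called in a comparison. Of Hk1 and Ldha, 1 row each carried nearly all of the level, 99.3% to 100% of Hk1 (NM_001146100) and 94.1% to 99.7% of Ldha (NM_010699). The Ldha row NM_001136069, with its own first exon, ranged from 0.0468 to 2.07 FPKM and reached 2.07 in Herb replicate 1 and 1.32 in Herb replicate 4, and NR_102727 was listed at 0 in all libraries.

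Pkm (chr9:59656576-59679372) has 2 rows that use a different exon 9 and yield the M1 and M2 types of pyruvate kinase. The M2 type can be switched between a slow and a fast state and is known from growing cells and lung, and the M1 type, which is always active, from muscle and brain. The exons of 167 bases lie at chr9:59675029-59675195 (M1, row NM_001253883) and chr9:59675568-59675734 (M2, row NM_011099) on the plus strand, and 103 of 167 bases are the same (61.7%). They are shown because reads over them tell the rows apart. Capitals mark the bases that differ.

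Pkm M1 exon: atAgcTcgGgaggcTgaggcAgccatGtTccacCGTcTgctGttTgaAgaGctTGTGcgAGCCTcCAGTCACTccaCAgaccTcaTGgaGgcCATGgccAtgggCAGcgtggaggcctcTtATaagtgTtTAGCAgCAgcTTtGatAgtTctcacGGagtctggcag

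Pkm M2 exon: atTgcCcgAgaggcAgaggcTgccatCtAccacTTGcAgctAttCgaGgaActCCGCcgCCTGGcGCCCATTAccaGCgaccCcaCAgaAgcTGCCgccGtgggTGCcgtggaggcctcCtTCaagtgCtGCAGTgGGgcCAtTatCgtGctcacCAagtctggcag

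Of the 2 named Pkm rows, the M2 row held the larger part in every library. It stood at 13.6, 11.0 and 25.5 FPKM in Saline, at 8.25, 6.19 and 9.92 in OVA and at 21.2, 18.8, 14.6 and 19.3 in Herb. The M1 row stood at 9.09, 7.78 and 3.84 FPKM in Saline and was listed at 0 in OVA replicates 1 and 3 and Herb replicates 1 to 3, with 2.03 in OVA replicate 2 and 3.52 in Herb replicate 4. The M1 row thus had a value in 3 of 3 Saline, 1 of 3 OVA and 1 of 4 Herb libraries, and its share of the 2 named rows was 13.1% to 41.4% in Saline. Assembled models without a symbol, listed next to Pkm, held 11.2 FPKM on average in Saline, 9.73 in OVA and 10.5 in Herb. Which exon 9 they carry is not known. A shift of level between models therefore cannot be told apart from a loss of M1. On the deposited scale both rows were lower in OVA than in Saline, M1 by a fitted -2.38 ± 0.66 (limma adjusted p = 0.0167) and M2 by -0.89 ± 0.30 (adjusted p = 0.0377), although M2 was above 0 when scaled to protein-coding RNA (0.53) or by quantiles (0.30). M2 was higher in Herb than in OVA (1.10 ± 0.28, limma adjusted p = 0.0211), and M1 was lower in Herb than in Saline (-2.37 ± 0.62, adjusted p = 0.0483), a call that was lost without any 1 of 8 libraries. The M1 call in OVA vs. Saline was lost on the 3 other scales (-2.07, -1.68 and -1.92 with the 75th percentile, protein-coding and quantile scalings, limma adjusted p = 0.0567, 0.117 and 0.0777), as was that in Herb vs. Saline (adjusted p from 0.0838 to 0.119). The fitted values of M1 rest on listed zeros and are no measure of the size of a change. Of the 11 glycolytic rows that passed the filter (average of 1 FPKM or more), 6 were called lower in OVA vs. Saline (41.1% of all rows), 2 higher in Herb vs. OVA (31.7%) and 1 lower in Herb vs. Saline (6.26%). These were Pfkl, Tpi1, Gpi1, Ldha NM_010699 and both Pkm rows in the first comparison, Tpi1 and the M2 row in the second and the M1 row in the third. Without OVA replicate 1 only 186 of all 30194 rows were called higher in the second comparison, and 0 of the glycolytic rows.

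A row without a symbol was set beside Pgk1 after the values were seen. The assembled model MSTRG.31989.2 is listed directly after Pgk1 but has no coordinates in the table. It stood at 10.5 FPKM in Herb replicate 3, where Pgk1 was listed at 0, and at 0.195 FPKM in Saline replicate 1, where Pgk1 was at 13.9. The sum of both rows was 14.1, 14.0 and 14.7 FPKM in Saline, 3.33, 6.05 and 7.99 in OVA and 11.5, 12.5, 10.5 and 14.2 in Herb. The coefficient of variation fell from 48.6% to 2.62% in Saline and from 76.7% to 13.2% in Herb. In OVA it rose from 35.0% to 40.5%. With this sum Pgk1 was lower in OVA than in Saline (-1.23 ± 0.24, limma adjusted p = 0.00188) and higher in Herb than in OVA (1.01 ± 0.23, adjusted p = 0.00944) on the deposited scale, whereas scaled to protein-coding RNA the values were 0.15 and 0.26 and neither was called. That the model belongs to Pgk1 rests on its place in the table and was not tested by position. Adding the models listed next to Pkm, MSTRG.30181.2 and MSTRG.30181.3, gave -0.88 in OVA vs. Saline (limma adjusted p = 0.00404) and 0.65 in Herb vs. OVA (adjusted p = 0.0207), and 0.61 (adjusted p = 0.0155) and -0.18 when scaled to protein-coding RNA.

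**Figure D5:**
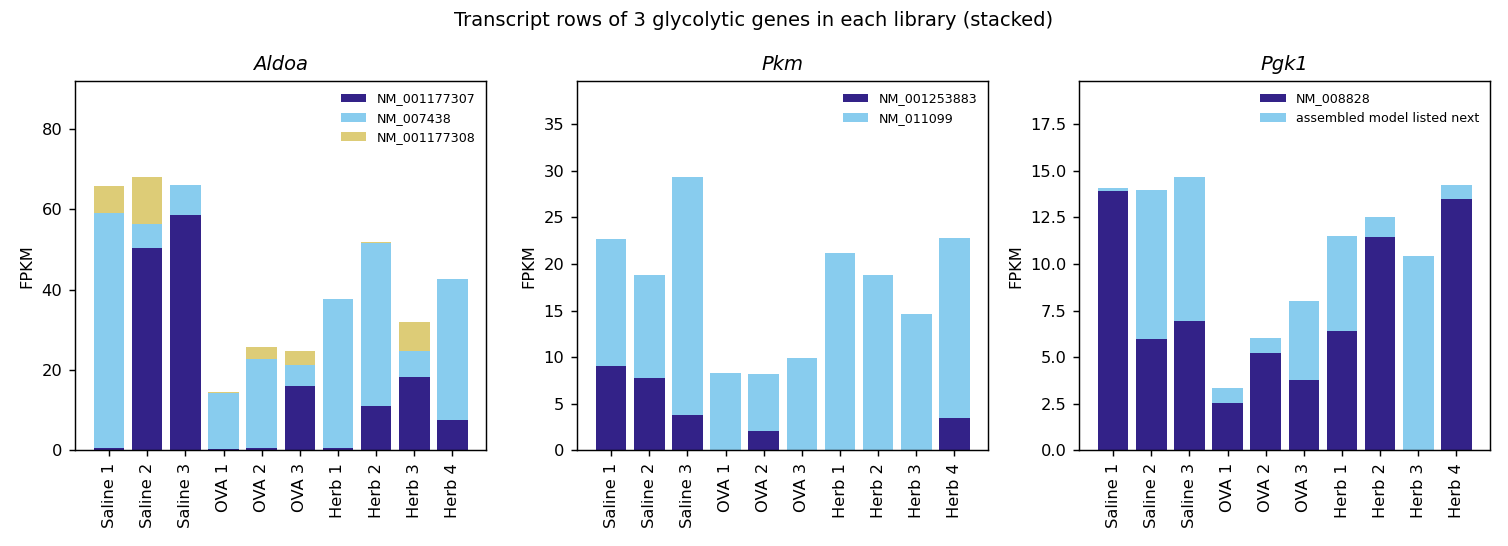
FPKM of the single rows of Aldoa and Pkm, and of Pgk1 with the assembled model listed next to it, stacked for each library. The Aldoa rows NM_001177307 and NM_007438 replace each other between libraries, the Pkm row NM_001253883 is listed at 0 in 5 of 10 libraries, and the assembled model carries 10.5 FPKM in the Herb library in which Pgk1 is at 0.

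Other genes of sugar metabolism were examined in lists chosen by function, and their counts are given on the deposited scale beside the 57.9%, 44% and 22.7% of all genes. Of 22 other glycolytic isoenzymes 12 had a mean of at least 1 FPKM and were tested, of which 5 were lower and 2 higher in OVA than in Saline. Bpgm, the mutase that makes bisphosphoglycerate in red cells, fell from 12.0 ± 2.37 to 1.98 ± 0.592 FPKM and Pgam1 from 7.50 ± 0.748 to 1.67 ± 0.773. Hexokinase 3 (Hk3), a form of blood leukocytes, rose from 2.10 ± 0.266 to 9.90 ± 5.15 FPKM (log2 fold change 1.71 ± 0.34, limma adjusted p = 0.00216) and stayed higher than Saline in Herb (7.98 ± 2.71, adjusted p = 0.0148). In Herb vs. OVA 4 of the 12 were higher, among them Pgam1 (1.40), Ldhb (1.22), the second gene of lactate dehydrogenase, and Eno1b (0.72), a retrotransposed enolase gene similar in sequence to Eno1 that stood at 4.06 ± 0.606, 1.94 ± 0.790 and 3.84 ± 1.20 FPKM in Saline, OVA and Herb while Eno1 was at 0. These levels are uncertain because reads of Eno1 and Eno1b can be confused. Scaled to protein-coding RNA, 6 of the 12 were higher and 1 lower in OVA vs. Saline, and 1 was higher in Herb vs. OVA.

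Of 17 genes of glucose and lactate transport and of flux control 15 were tested, of which 7 were lower in OVA, 7 were higher in Herb than in OVA and 4 were lower in Herb than in Saline. Scaled to protein-coding RNA, 2 were higher and 3 lower in OVA vs. Saline, 0 were called in Herb vs. OVA and 2 were higher in Herb vs. Saline. On the deposited scale Pdk4 and Pdk3, kinases that switch off pyruvate dehydrogenase, changed by -3.02 ± 0.54 and -1.60 ± 0.12 on the log2 scale in OVA vs. Saline, and Pdha1 and Pdhb, subunits of that enzyme, by -1.96 ± 0.22 and -1.37 ± 0.29 (limma adjusted p from 0.000136 to 0.00263). The lactate transporter gene Slc16a1 was higher in Herb than in OVA (0.75 ± 0.16, limma adjusted p = 0.00858). Pdhb stood at similar means in OVA and Herb, with 9.41 ± 1.21, 3.26 ± 1.73 and 3.36 ± 0.844 FPKM in Saline, OVA and Herb.

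On the deposited scale all 6 pentose phosphate genes tested were lower in OVA than in Saline, and 5 were higher in Herb than in OVA, a count that was 0 with the 75th percentile and protein-coding scalings. They included Taldo1 (26.5 ± 2.71, 6.41 ± 1.72 and 14.4 ± 3.13 FPKM in the 3 groups) and G6pdx, the first enzyme of that pathway (7.27 ± 0.350, 2.71 ± 0.882 and 5.06 ± 0.850), and a seventh gene, Pgd, was listed at 0 in all libraries. Of 4 gluconeogenesis genes only Fbp2 was lower in OVA (-1.36 ± 0.29, limma adjusted p = 0.00273), and none was called in the other comparisons, whereas scaled to protein-coding RNA 2 of the 4 were higher and 0 lower in OVA and in Herb than in Saline. Of 10 further HIF-1 targets 8 were lower in OVA, 6 higher in Herb than in OVA and 3 lower in Herb than in Saline, and Bnip3 and Bnip3l, which act in the removal of mitochondria, had the largest differences (-2.68 ± 0.32 and -2.30 ± 0.27). Of 12 reference genes 7 were lower in OVA, 7 higher in Herb than in OVA and 3 lower in Herb than in Saline. Scaled to protein-coding RNA, the pentose phosphate genes gave 1 higher and 1 lower, the HIF-1 targets 1 higher and 2 lower and the reference genes 2 higher and 1 lower in OVA vs. Saline. In Herb vs. OVA none of the HIF-1 targets or reference genes was higher with the 75th percentile or the protein-coding scaling, and 1 HIF-1 target was lower with the latter.

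The promoters of the members were read because many glycolytic genes are known to carry the HIF-1 core motif, one form of which is ACGTG. In RefSeq promoters of GRCm38.p6 (250 bases before to 50 bases after a start) ACGTG or its reverse complement CACGT was found in 19.6% of 32851 promoters and 21.8% of genes. Of the members' 17 promoters 7 held it, in 6 of 10 genes (Hk1, Aldoa, Gapdh, Pgk1, Pkm and Ldha). Some of these windows overlap, so that 1 site can be counted in more than 1 promoter, as for Aldoa. The 10 members had 17 promoters, beside 32851 in 27025 genes, and more promoters per gene raise a count by gene for every motif. In Gapdh and Hk1 no match lay within the 250 bases before the start. No Hk1 or Pkm row started within 50 bases of the promoter start that had the motif. The overlapping motif CACGTG was found in 7.15% of all promoters and in 1 of the 17, that of Ldha. Other motifs were searched on both strands. The GC box GGGCGG was found in 10 of the 17 and in 35.7% of all promoters (8 of 10 member genes, 38.2% of all genes). The motif CCAAT was found in 7 of the 17 and in 37.4% of all (4 of 10 member genes, 41.1% of all genes). The second HIF-1 core form, GCGTG, was found in 8 of the 17 and in 32.4% of all (5 of 10 member genes, 35.2% of all genes). The TATA motif TATAAA was found in 0 of the 17 and in 13.6% of all promoters. The 250 bases upstream of Ldha (chr7:46845554-46845803, plus strand), Pgk1 (chrX:106186850-106187099, plus strand) and the Aldoa row NM_007438 (chr7:126799255-126799504, minus strand) are shown as examples of member promoters with this motif. Capitals mark each match of ACGTG on either strand, which includes every CACGTG.

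Ldha promoter: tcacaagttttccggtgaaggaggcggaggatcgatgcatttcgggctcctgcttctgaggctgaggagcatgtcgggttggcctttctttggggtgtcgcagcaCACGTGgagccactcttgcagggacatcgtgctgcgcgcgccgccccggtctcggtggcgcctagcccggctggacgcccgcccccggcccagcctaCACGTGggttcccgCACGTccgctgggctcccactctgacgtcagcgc

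Pgk1 promoter: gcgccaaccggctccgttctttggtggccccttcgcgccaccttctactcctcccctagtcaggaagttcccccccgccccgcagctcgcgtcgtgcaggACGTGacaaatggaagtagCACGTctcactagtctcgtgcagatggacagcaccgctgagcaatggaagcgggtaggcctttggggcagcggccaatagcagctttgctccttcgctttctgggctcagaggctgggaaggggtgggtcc

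Aldoa promoter: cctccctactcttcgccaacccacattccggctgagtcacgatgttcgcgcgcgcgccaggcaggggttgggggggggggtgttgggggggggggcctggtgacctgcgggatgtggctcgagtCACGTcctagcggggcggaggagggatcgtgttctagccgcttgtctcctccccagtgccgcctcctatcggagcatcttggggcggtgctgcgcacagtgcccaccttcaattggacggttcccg

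In these windows Ldha had 5 matches of ACGTG counted on both strands, of which 4 lay in 2 copies of CACGTG, and Pgk1 had 2 and Aldoa 1. These are matches of letters, and binding was not measured here.

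Across the 10 libraries the mean log2 level of the 8 genes tested ran most closely with those of Zyx (r = 0.981), Fuca1 (0.980), Tapbpl (0.978), Lrp10 (0.977) and Snx17 (0.976). The values are Pearson correlations over 10 libraries that share the composition of each library, and are given as a description.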

How the data were processed

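Lung RNA of 10 mice was sequenced in paired 76-base reads. Per the labels the authors used cutadapt 1.10, HISAT2, StringTie 1.3.3b and edgeR 3.16.5 with mm10, and they deposited 1 table of FPKM values per transcript. No read counts were used here. Groups came from the sample labels. FPKM shares out the fragments of a library, so an abundant RNA class lowers all other values, and the deposited values carry no further scaling between libraries.

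Rows were summed per symbol. Differences were tested with limma 3.58.1 (R 4.3.3; trend, all 10 libraries, 3 group means) on log2(FPKM + 1), over the 11205 gene sums and 30194 rows whose average was 1 FPKM or more, with Benjamini-Hochberg adjustment over all of them. This scale understates changes of low genes. A call is an adjusted p under 0.05. Of the members 8 of 10 genes and 11 of 17 rows passed the filter. The procedure was run on simulated data with independent values and no difference in composition between libraries. It therefore does not tell how calls behave where the composition differs, as it does here. The members and lists were chosen with earlier results of these data known, and shares, ratios and adjacent models after the values were seen. Named are all members and, per list and comparison, up to 4 called genes with the largest changes. The values of alternative settings are given in the closing section.

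Depth was estimated from genes with 1 row below 0.1 FPKM. Only estimates within a preset window of depths were kept, and the most frequent one was taken to stand for 1 fragment. The depths and fragment numbers are therefore approximate. Intervals for counting error were not computed, as the values are not counts. Shared windows were searched in GENCODE vM21 transcripts, with similarity (at least 90% identity over at least 300 bases) from blastn 2.17.0. Scripts used Python 3.11.15, numpy 2.4.6, pandas 2.3.3 and matplotlib 3.10.9. Protein sequences were not used here.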

Additional observations from a re-analysis of the deposited data

Results flagged for a closer look

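In the Herb group (4 libraries) 1 library stood far from the other 3 in 5 of 23 sets of member values, where the gap to the nearest library took up more of the range than Dixon's critical value for 4 samples. Chance passes this limit in about 1 of 20 groups, but the 23 sets are not independent, since genes with a single row enter as gene and as row, and in 3 of the 5 the other 3 libraries are listed at 0, which makes the gap the whole range. The Aldoa row NM_007438 was lowest in Herb replicate 3 at 6.31804 FPKM, and the Aldoa row NM_001177308 was highest in the same library at 7.35445 FPKM. Gapdh was highest in Herb replicate 2 at 0.062086 FPKM, as a gene and as its row NM_008084, with the other 3 libraries at 0. The Pkm row NM_001253883 (M1 type) was highest in Herb replicate 4 at 3.51726 FPKM, with the other 3 libraries at 0. The gene sums of Aldoa and Pkm showed no such library.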

How the results depend on the processing

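Over all glycolytic genes, rows and alternatives, 874 values kept direction and side of the threshold, 130 lost a call, 25 gained one and 105 changed sign, 36 of which were called in at least 1 of the 2 fits and 69 in neither. The 36 were all found under the rescalings, alone or with adjacent models, as were 46 of the 69, and the cause was not tested. In OVA vs. Saline the 7 gene calls became 4 lower (75th percentile), 3 higher (protein-coding sum) and 2 higher (quantile), and the 6 row calls 3 (mean of at least 5 FPKM, which tests fewer rows), 1 (75th percentile), 3 higher (protein-coding) and 1 higher (quantile), with 3 to 6 without 1 library. In Herb vs. OVA the 6 gene calls became 3 without a filter, 3 with the OVA and Herb libraries alone, 0 under each of the 3 rescalings, 0 with the protein-coding scaling without OVA replicate 1 (added after seeing the data), and 3 to 8 without 1 library, and the 2 row calls became 4 with a pseudocount of 0.1, 0 under the 3 rescalings and 0 to 5 without 1 library. Without OVA replicate 1, 0 glycolytic rows were called, and of all 30194 rows 186 were called higher, beside 9583 in the main fit. In Herb vs. Saline the 2 gene calls became 0 and 1 with pseudocounts of 0.1 and 0.5, 0 without a filter, 1 (75th percentile), 2 higher (protein-coding), 1 higher (quantile) and 0 to 3 without 1 library, and the 1 row call became 0 with pseudocounts of 0.1 and 0.5, without a filter, under the 3 rescalings and with 2 groups alone, and 0 to 1 without 1 library.

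Of values called in at least 1 of the 2 fits, those that changed sign in OVA vs. Saline were Hk1 (0.26, 0.91 and 0.56 for the 75th percentile, protein-coding and quantile scalings), Ldha (0.11, 0.85 and 1.09), Pfkl (0.40 protein-coding, 0.00679 quantile), Pkm (0.13 and 0.0893, and 0.61 with the adjacent models and protein-coding scaling), Tpi1 (0.0738, protein-coding) and Aldoa (0.23, quantile). Among rows they were Hk1 NM_001146100 (0.92), Ldha NM_010699 (0.11, 0.85 and 0.86), Pfkl (0.40), Pkm NM_011099 (0.53 and 0.30) and Tpi1 (0.0738). In Herb vs. OVA they were Ldha (-0.000390, -0.23 and -0.32), Pfkl (-0.0857, -0.29 and -0.13), Aldoa (-0.0536, quantile), Tpi1 (-0.00940, protein-coding, gene and row) and Pkm with adjacent models (-0.18). In Herb vs. Saline they were Hk1 (0.52), Ldha (0.61 protein-coding, 0.77 quantile), Pfkl (0.11) and Tpi1 (0.0644). Among gene sums called in neither fit, rescaling also changed the sign of Pgk1 in all 3 comparisons (in Herb vs. Saline only with the adjacent models added), of Hk1 in Herb vs. OVA, and of Hk1, Ldha, Pkm and Aldoa in Herb vs. Saline. Rows called in neither fit changed sign 7, 15 and 8 times under the rescalings in the 3 comparisons.

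The labels give the groups the same replicate numbers. The 9 same-number pairs correlated at -0.00869 to 0.0953 in their deviations from the group means, and pairs of different numbers at -0.170 to 0.227. With so few libraries per group these values cannot decide whether the numbers pair the mice, and the main fits used no pairing. With a replicate block, which leaves Herb replicate 4 without a partner, 5 genes were called in OVA vs. Saline, 3 in Herb vs. OVA and 0 in Herb vs. Saline, and 4, 0 and 1 rows. Depth limits the lowest values, as the whole signal of Gapdh is about 1.3 fragments.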
